A study of Mus musculus with 6 samples.

Results

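The aminoacyl-tRNA synthetases, the enzymes of serine, glycine, one-carbon, asparagine, aspartate and proline synthesis, and the factors of the integrated stress response were examined as a list of 54 genes. The list holds 20 cytosolic synthetase genes, 14 mitochondrial synthetase genes, 11 genes of amino acid and one-carbon synthesis and 9 stress factors. It was drawn up by gene function, with earlier results of these data known. Of the 54 genes, 51 were measured among 19937 genes, each by the probe set that carries its symbol alone and has the highest mean over all arrays. Aars, Dars and Pycr1 had no such probe set. The methionyl-tRNA synthetase Mars is annotated as Mars1 and was matched through its RefSeq synonym.

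RNA of sorted mouse hematopoietic cells was read on 6 Affymetrix Gene ST arrays, each with 1 biotin-labelled sample, 3 per construct. All samples were lineage-negative (Lin-) cells of strain C57BL6 from Rosa26rtTA mice, which carry a doxycycline-dependent transactivator at the Rosa26 locus, and all had the same serum-free medium with stem cell factor, interleukin 3, Flt3 ligand and interleukin 11. Cells received a lentiviral vector with a tetracycline-responsive promoter that drives either EVI1, a zinc finger transcription factor of the Mecom locus, together with EGFP (the EVI1 arrays), or EGFP alone (the EGFP arrays). Both groups received the vector 24 h after isolation and doxycycline at 1 µg/ml 24 h after the vector, and were sorted for EGFP. RNA was taken after 20 h of doxycycline by the design text and after 24 h by the sample labels. The model is therefore forced expression from a vector in cells selected for EGFP, and nothing in the labels tells if the replicates came from different animals or transductions. P-values thus measure the spread between these arrays, which may be technical. The comparison asks which transcripts differ when EVI1 is expressed for about 1 day.

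Levels are log2 intensities as normalised by the authors. A log2 fold change is the mean of the EVI1 arrays minus the mean of the EGFP arrays, given with its standard error (SE), and SD describes the 3 values within a group. A gene is said to have risen or fallen where limma's adjusted p over all 19937 genes was under 0.05. The probe sets for Mecom did not show the overexpression, and the brighter one was dim, with both group means below a threshold for doubtful signal (6.95 with EGFP and 6.99 with EVI1, the level that 95% of 1027 olfactory receptor genes do not exceed). The brighter probe set read 6.39, 7.53 and 6.86 with EGFP and 6.29, 6.18 and 6.49 with EVI1, a log2 fold change of -0.60 ± 0.26 SE (limma adjusted p = 0.166). An exact permutation test, two-sided, gave p = 0.2, and 3 arrays against 3 cannot give less than 0.1. Without EGFP replicate 1 the log2 fold change was -0.87 (limma adjusted p = 0.0306). The dimmer probe set read 6.66, 6.63 and 6.45 with EGFP and 6.39, 6.28 and 6.37 with EVI1. Its group means differed by -0.23, and every EVI1 array was under every EGFP array. Whether these probes read the vector's coding sequence is not known here, so every direction below is that of the library labels. The correlation of arrays over all genes was r = 0.976 to 0.990 for the same construct and r = 0.942 to 0.959 for different constructs.

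Aminoacyl-tRNA synthetases join each amino acid to its transfer RNA. The cytosol and the mitochondria use separate genes for most amino acids, while Gars and Kars serve both compartments and are counted here as cytosolic. When amino acids run short or unfolded proteins build up, the kinases Eif2ak4 (GCN2) and Eif2ak3 (PERK) phosphorylate the initiation factor eIF2. General translation then slows while Atf4 messenger RNA is translated more, and the ATF4 protein activates synthetase genes, amino acid synthesis genes, amino acid transporters and stress factors. ATF4 activity is set largely by translation, which an array does not measure. The same synthesis genes supply serine, glycine and one-carbon units for nucleotides in dividing cells such as cultured hematopoietic progenitors.

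Most of the measured genes that charge cytosolic transfer RNA (11 of 18) and of those for amino acid and one-carbon synthesis (7 of 10) fell in the EVI1 arrays, while 12 of 14 mitochondrial synthetases and 6 of 9 stress factors did not pass the test. Of 51 measured members 21 fell and 2 rose, where 9.18% of all genes fell and 9.06% rose. Among the 9969 genes above the median level, tested alone, 16.8% fell, and most members are in that range. The 11 falls among 18 cytosolic synthetases, 2 among 14 mitochondrial synthetases, 7 among 10 synthesis genes and 1 among 9 stress factors add up to these 21. Median log2 fold changes were -0.58, -0.15, -1.09 and -0.09 in the same order, beside 0.006 over all genes. All 3 EVI1 values lay below all 3 EGFP values for 27 members and above them for 4, where 16.5% and 16.1% of all genes did so. With the replicate number as a block, 25 members fell and 3 rose, where 11.0% and 10.9% of all genes did. When either replicate 1 or 3 of EGFP, or either replicate 1 or 2 of EVI1, was left out, 0 members rose, and 1 rose when replicate 3 of EVI1 was. Within same-numbered pairs of arrays, the EVI1 value was the lower one in all 3 pairs for 14 of 18 cytosolic synthetases (77.8%), 11 of 14 mitochondrial synthetases (78.6%), 10 of 10 synthesis genes and 3 of 9 stress factors (33.3%), beside 25.1% of all genes. By this sign alone the cytosolic and mitochondrial sets had similar shares. The roles also differed in signal. Median gene levels were 10.2 for cytosolic synthetases, 7.89 for mitochondrial synthetases, 9.36 for synthesis genes and 8.35 for stress factors. The shares of mitochondrial synthetases (14.3%) and stress factors (11.1%) that fell were near the 9.18% and 16.8% given above. The differences between the 4 roles, and the part of signal level in them, were not tested.

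**Figure D1:**
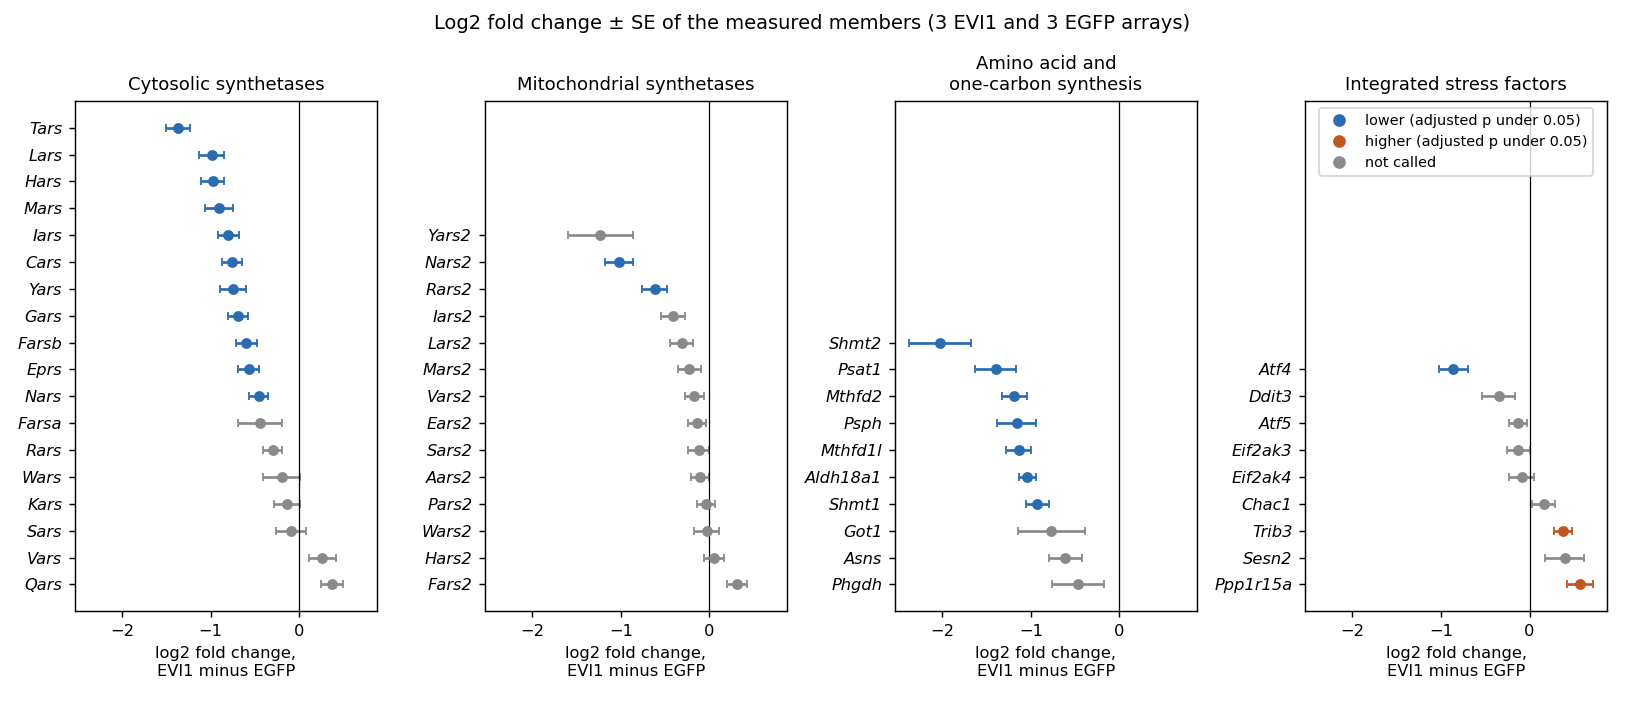
Log2 fold change (EVI1 minus EGFP, horizontal axis) of the 51 measured members with SE bars, 1 panel for each role and 1 line for each gene, coloured by limma call. The 11 cytosolic synthetases that fell lie between -1.37 and -0.46, all 10 synthesis genes lie left of 0, and the stress factors spread from -0.86 to 0.57.

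The mean level over each role's genes separated the arrays in the same way. The EVI1 arrays lay 0.64, 0.39 and 0.53 log2 units under the EGFP mean for the cytosolic synthetases, where the EGFP arrays spread from -0.16 to 0.19 around their own mean. For the synthesis genes the EVI1 arrays lay 1.31, 0.86 and 1.05 under it, and the EGFP arrays spread from -0.35 to 0.29. Mitochondrial synthetases lay 0.30, 0.24 and 0.33 under it, with the EGFP arrays from -0.08 to 0.05. These 3 roles did not overlap between groups, while the stress factors did, at -0.07 to 0.05 in the EVI1 arrays and -0.07 to 0.07 in the EGFP arrays.

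**Figure D2:**
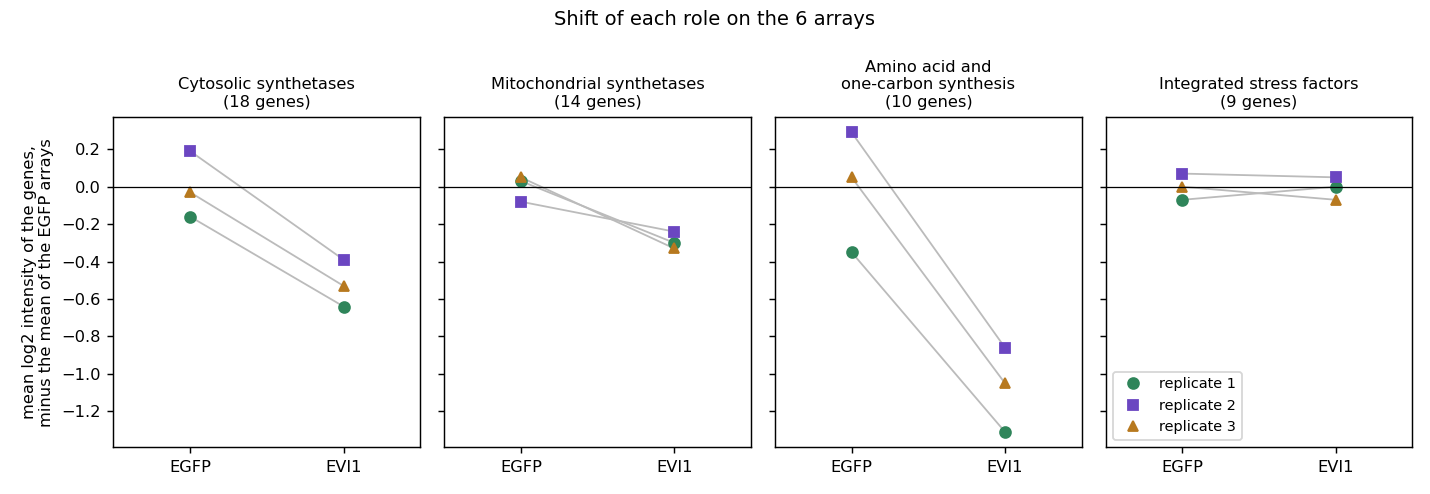
Mean log2 intensity over the genes of each role on each array, minus the mean of the 3 EGFP arrays (vertical axis), with arrays of the same replicate number joined. The EVI1 arrays lie lower for the synthesis genes (mean shift -1.07) and the cytosolic synthetases (-0.52), less so for the mitochondrial synthetases (-0.29), and at the EGFP level for the stress factors (-0.01).

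Replicate 2 was the highest array of its group for most members. It was highest for 32 of 51 members among the EGFP arrays (62.7%, beside 32.7% of all genes) and for 31 of 51 among the EVI1 arrays (60.8%, beside 29.7% of all genes). EGFP replicate 1 was the lowest array for 39 members and EVI1 replicate 1 for 30. Same-numbered arrays thus often deviated together. Some genes with a wide spread within groups had a smaller SE with the replicate block, as for Got1 (0.38 without and 0.11 with it), Shmt2 (0.35 and 0.11) and Phgdh (0.29 and 0.11). The mean of the mitochondrial synthetases did not follow this. Relative to the EGFP mean, replicate 2 was the lowest EGFP array (-0.08) but the highest EVI1 array (-0.24). For Yars2 the SE was 0.37 without and 0.34 with the block.

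As ATF4 is known to act on many of these genes, the RefSeq promoter windows (GRCm38.p6, 250 bases before to 50 after the annotated start) of the 42 members found in that table were searched on both strands. The letters TGATGNAA (reverse TTNCATCA) are the core of the C/EBP-ATF response element that ATF4 binds with a C/EBP partner, and CACGTG is the E-box bound by Myc and related factors. The first occurred in 8 of 42 members (19.0%), beside 4.51% of all 27025 genes in the table, and the second in 5 of 42 (11.9%), beside 8.09%. These counts were not tested. The list was drawn up partly from genes known to respond to ATF4, so its TGATGNAA share cannot test a link to ATF4. The TGATGNAA matches were in Asns, Chac1, Gars, Got1, Iars, Tars, Trib3 and Yars, of which Gars, Iars, Tars and Yars fell, Trib3 rose, and Asns, Chac1 and Got1 did not pass. With the replicate block Asns and Got1 also fell (limma adjusted p = 0.0306 and 0.00443). The CACGTG matches were in Aldh18a1, Ears2, Farsb, Iars and Tars, of which all but Ears2 fell. Among all 51 measured members 41.2% fell. Neither letter set was found in Eprs, Mars, Nars2, Rars2, Psat1, Psph, Shmt1, Shmt2, Mthfd2, Mthfd1l and Atf4, which also fell. No window was found for Cars, Hars, Lars and Nars, which fell, or for Rars, Vars, Wars, Hars2 and Pars2, which did not pass. Iars and Tars hold both letter sets, and the positions do not overlap. A match is a description of the letters and not a site of binding.
The stretches upstream of the start that hold TGATGNAA are shown 5′ to 3′ on the gene's strand with the match in capitals, so that members that fell (Gars and Tars) can be set beside members that fell with the replicate block alone (Asns and Got1) and a member that passed in neither fit (Chac1).
Tars, chr15:11399659-11399718, minus strand: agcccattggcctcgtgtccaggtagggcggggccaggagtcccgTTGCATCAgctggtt
Gars, chr6:55037926-55038000, plus strand: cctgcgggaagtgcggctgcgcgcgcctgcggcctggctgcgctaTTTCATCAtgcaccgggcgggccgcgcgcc
Asns, chr6:7693210-7693277, minus strand: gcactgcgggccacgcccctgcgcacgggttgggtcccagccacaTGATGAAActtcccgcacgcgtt
Got1, chr19:43524655-43524752, minus strand: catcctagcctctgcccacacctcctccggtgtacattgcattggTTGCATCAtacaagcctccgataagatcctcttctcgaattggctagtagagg
Chac1, chr2:119351004-119351101, plus strand: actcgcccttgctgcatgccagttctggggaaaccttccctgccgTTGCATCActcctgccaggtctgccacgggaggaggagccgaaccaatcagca
The stretches with an upstream CACGTG belong to 3 members that fell.
Aldh18a1, chr19:40588472-40588567, minus strand: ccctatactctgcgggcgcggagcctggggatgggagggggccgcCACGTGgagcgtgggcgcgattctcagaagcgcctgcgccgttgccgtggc
Farsb, chr1:78488898-78488981, minus strand: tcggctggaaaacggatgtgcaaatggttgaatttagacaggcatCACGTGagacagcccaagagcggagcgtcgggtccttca
Iars, chr13:49682016-49682111, plus strand: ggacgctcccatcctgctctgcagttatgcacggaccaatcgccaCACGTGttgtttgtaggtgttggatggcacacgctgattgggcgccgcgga

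Among the cytosolic synthetases, Tars, which charges threonine transfer RNA, fell most. Its levels were 10.65, 11.06 and 10.70 with EGFP and 9.30, 9.59 and 9.42 with EVI1, a 2.58-fold fall (log2 fold change -1.37 ± 0.14 SE, limma adjusted p = 0.000551). The groups lay more than 1 log2 unit apart and each pair of same-numbered arrays differed by -1.28 to -1.47. Hars, for histidine, read 10.06, 10.43 and 10.13 against 9.22, 9.29 and 9.16, a 1.98-fold fall (-0.98 ± 0.13 SE, limma adjusted p = 0.00139). Lars, for leucine, read 11.08, 11.46 and 11.19 against 10.07, 10.38 and 10.31, also a 1.98-fold fall (-0.99 ± 0.14 SE, limma adjusted p = 0.00212). In both, every EVI1 array was under every EGFP array.

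Iars, for isoleucine, read 12.44, 12.60 and 12.57 against 11.63, 11.94 and 11.63, a fall of 1.75-fold (-0.80 ± 0.12 SE, limma adjusted p = 0.00314). Its other probe set, which is dimmer, differed by -0.68 between group means of 10.94 ± 0.22 and 10.25 ± 0.21 (SD, n = 3). Every EVI1 array was under every EGFP array on both probe sets. Cars, for cysteine, read 8.87, 8.96 and 8.92 against 8.15, 8.31 and 8.03, a 1.69-fold fall (-0.76 ± 0.11 SE, limma adjusted p = 0.00246). The EGFP arrays of Cars were within 0.09 of each other.

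The other cytosolic synthetases that fell were Mars for methionine (-0.91 ± 0.16), Yars for tyrosine (-0.75 ± 0.15), Gars for glycine (-0.69 ± 0.11), Farsb, the beta subunit of the phenylalanine enzyme (-0.60 ± 0.12), Eprs, which charges both glutamate and proline (-0.57 ± 0.12), and Nars for asparagine (-0.46 ± 0.11, log2 fold change ± SE throughout). All EVI1 arrays were under all EGFP arrays for each of these 6. The calls of Eprs and Nars rested on particular arrays. Leaving out EGFP replicate 3 or EVI1 replicate 1 gave limma adjusted p = 0.0513 and 0.0529 for Eprs. For Nars, leaving out EGFP replicate 3 or EVI1 replicate 1, 2 or 3 gave limma adjusted p = 0.0766, 0.0717, 0.0558 and 0.0760, with a log2 fold change of -0.48 to -0.43.

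In contrast to these, 7 cytosolic synthetases did not pass. Sars, for serine, read 10.54, 11.08 and 10.55 with EGFP and 10.54, 10.84 and 10.53 with EVI1, so that the groups overlapped almost entirely, and the 95% interval of its log2 fold change was -0.48 to 0.30. Kars, for lysine, read 10.20, 10.63 and 10.25 against 10.07, 10.36 and 10.23 (95% interval -0.47 to 0.20). Wars, for tryptophan and also a known interferon-inducible gene, read 8.66, 9.35 and 8.84 against 8.49, 8.70 and 9.05 (95% interval -0.67 to 0.27). In these 3 genes at least 1 EVI1 array reached the range of the EGFP arrays. The intervals exclude a fall as large as that of Tars, the largest of the role. They do include a fall as large as that of Nars (-0.46), which passed. Farsa, the alpha subunit of the phenylalanine enzyme (-0.44 ± 0.25), Rars for arginine (-0.30 ± 0.11) and Vars for valine (0.26 ± 0.15) did not pass either. EGFP replicate 2 of Farsa stood at 9.79, beside 8.86 and 8.96.

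Qars, for glutamine, was the only cytosolic synthetase for which every EVI1 array was above every EGFP array. It read 9.68, 9.91 and 9.73 against 10.03, 10.30 and 10.11, a log2 fold change of 0.37 ± 0.12 SE (limma adjusted p = 0.0708). It passed with the replicate block (limma adjusted p = 0.0330), with array weights (0.0387) and without EGFP replicate 2 (0.0391). Qars belongs to the multisynthetase complex, in which several synthetases are held together by the scaffold proteins Aimp1, Aimp2 and Eef1e1. Of 7 measured synthetases of that complex (Eprs, Iars, Lars, Mars, Qars, Kars and Rars) 4 fell, and of 11 outside it 7 fell, a division made after the values had been seen. Among the scaffold genes Eef1e1 fell by 1.63 ± 0.20 SE (limma adjusted p = 0.00104) and Aimp2 by 0.89 ± 0.14 SE (limma adjusted p = 0.00401), while Aimp1 differed by 0.41 ± 0.14 SE (limma adjusted p = 0.0756, and 0.0244 with the replicate block).

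Of the 14 mitochondrial synthetases, Nars2 for asparagine and Rars2 for arginine fell. Nars2 read 8.87, 8.40 and 8.66 with EGFP and 7.85, 7.58 and 7.44 with EVI1, a 2.03-fold fall (-1.02 ± 0.16 SE, limma adjusted p = 0.00317). Rars2 read 9.41, 9.24 and 9.29 against 8.86, 8.80 and 8.42, a 1.54-fold fall (-0.62 ± 0.14 SE, limma adjusted p = 0.0158). The groups did not overlap in either gene. The Rars2 call was lost without EGFP replicate 1 (limma adjusted p = 0.0513) or EGFP replicate 3 (0.0509), which left 1 mitochondrial gene that fell.

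Yars2, for tyrosine, had the lowest log2 fold change of the mitochondrial set but a wide spread. It read 10.91, 9.61 and 11.10 with EGFP and 9.56, 9.44 and 8.91 with EVI1 (-1.23 ± 0.37 SE, limma adjusted p = 0.0531). EGFP replicate 2 lay more than 1 log2 unit under the other EGFP arrays and just above the highest EVI1 array. Without that array the log2 fold change was -1.70 (limma adjusted p = 0.000787), and with the replicate block limma adjusted p was 0.0483. Iars2 read 9.81, 9.89 and 9.90 against 9.47, 9.72 and 9.19 (-0.41 ± 0.14 SE, limma adjusted p = 0.0947) and passed without EVI1 replicate 2 (-0.54, limma adjusted p = 0.0416).

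Fars2, for phenylalanine, leaned the other way. It read 8.80, 8.72 and 8.56 with EGFP and 9.12, 8.99 and 8.90 with EVI1 (0.31 ± 0.11 SE, limma adjusted p = 0.108), with no overlap between the groups. Hars2 read 8.28, 8.13 and 8.20 against 8.13, 8.30 and 8.33, and its 95% interval was -0.20 to 0.30. Wars2 read 8.04, 7.87 and 8.03 against 7.68, 8.15 and 8.02 (95% interval -0.35 to 0.29), and Pars2, for proline, 6.81, 6.84 and 6.91 against 6.74, 6.80 and 6.91 (95% interval -0.27 to 0.20). The groups overlapped in these last 3 genes. Pars2 lay in both groups below the olfactory receptor threshold (6.95 and 6.99), set on genes with no known role in blood cells, so its level is uncertain. The remaining 6, Aars2, Ears2, Lars2, Mars2, Sars2 and Vars2, had log2 fold changes from -0.31 to -0.11.

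Set side by side, the cytosolic and mitochondrial genes of 1 amino acid often had different calls. There were 12 such pairs for 11 amino acids, since Farsa and Farsb are both set against Fars2. In 6 of the 12 pairs the cytosolic gene fell and the mitochondrial gene did not pass, as for leucine (-0.99 and -0.31), histidine (-0.98 and 0.05), methionine (-0.91 and -0.23) and isoleucine (-0.80 and -0.41). Tyrosine is also among the 6, although Yars2 (-1.23 ± 0.37 SE, limma adjusted p = 0.0531) was further down than Yars (-0.75 ± 0.15 SE). With the replicate block Yars2 fell too (limma adjusted p = 0.0483). Among the 12 pairs, both genes fell for asparagine (-0.46 for Nars and -1.02 for Nars2). For arginine Rars2 fell (-0.62) and Rars did not pass (-0.30), and neither gene passed in the other 4. The difference within a pair was not tested.

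**Figure D3:**
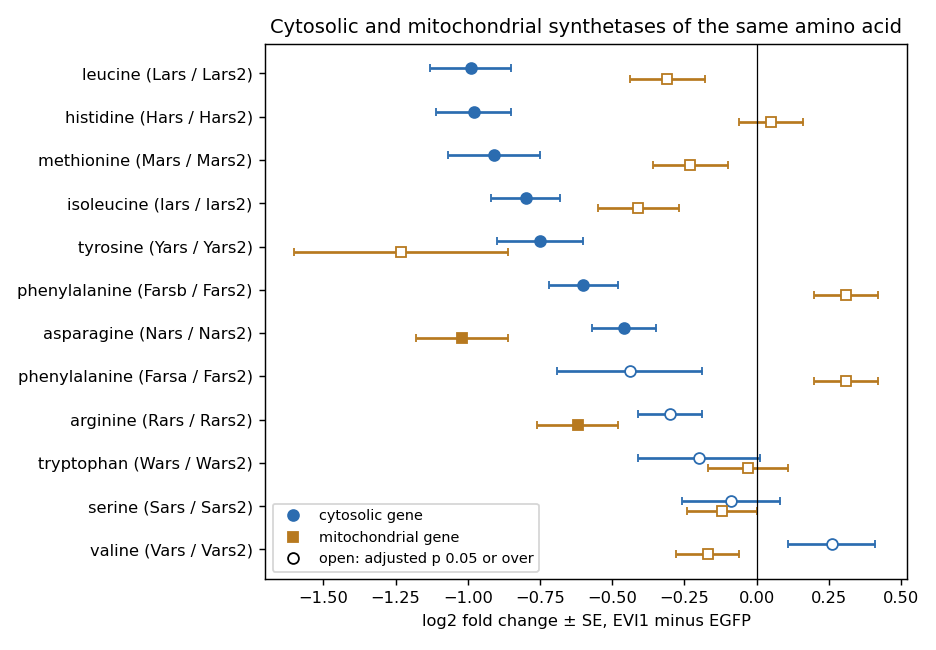
Log2 fold change ± SE (EVI1 minus EGFP, horizontal axis) of 12 pairs of cytosolic (circles) and mitochondrial (squares) synthetase genes of the same amino acid. Filled symbols are genes that passed the test. The cytosolic gene lies further left for leucine, histidine, methionine, isoleucine, tryptophan and both subunits for phenylalanine. The mitochondrial gene lies further left for asparagine, tyrosine, arginine, valine and, by little, serine.

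Serine is made from a glycolytic intermediate by Phgdh, Psat1 and Psph in turn, and Shmt1 in the cytosol and Shmt2 in the mitochondria turn it into glycine and a one-carbon unit. Shmt2 had the largest fold change of all members. It read 9.51, 10.81 and 10.41 with EGFP and 7.66, 8.66 and 8.32 with EVI1, a 4.08-fold fall (-2.03 ± 0.35 SE, limma adjusted p = 0.00522). The arrays spanned 1.30 log2 units with EGFP and 0.99 with EVI1, but the lowest EGFP array was still above the highest EVI1 array. Shmt1 read 8.69, 8.99 and 8.70 against 7.96, 7.68 and 7.96, a 1.91-fold fall (-0.93 ± 0.13 SE, limma adjusted p = 0.00228).

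Psat1, the aminotransferase of the second step of serine synthesis, read 10.78, 11.40 and 11.03 against 9.29, 10.11 and 9.63, a 2.63-fold fall (-1.40 ± 0.23 SE, limma adjusted p = 0.00411). Psph, the phosphatase of the last step, read 9.01, 9.80 and 9.24 against 7.93, 8.47 and 8.18, a 2.23-fold fall (-1.16 ± 0.22 SE, limma adjusted p = 0.00778). Every EVI1 array was under every EGFP array for both. Phgdh, the dehydrogenase of the first step, read 8.31, 9.31 and 9.30 against 8.07, 8.70 and 8.75. Its groups overlapped through EGFP replicate 1, and the log2 fold change was -0.47 ± 0.29 SE (limma adjusted p = 0.374). Without that array the log2 fold change was -0.80 (limma adjusted p = 0.0450), and with the replicate block limma adjusted p was 0.0290. A further probe set that names Phgdh together with another gene was not used.

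One-carbon units made by Shmt2 are processed in the mitochondria by Mthfd2 and Mthfd1l, which yield formate. Mthfd2 read 10.72, 11.07 and 11.06 against 9.55, 9.87 and 9.85, a 2.28-fold fall (-1.19 ± 0.14 SE, limma adjusted p = 0.00101). Mthfd1l read 9.95, 10.05 and 10.20 against 8.99, 9.14 and 8.66, a 2.20-fold fall (-1.14 ± 0.14 SE, limma adjusted p = 0.00133). Both were clearly parted between the groups. Further genes of the folate and amino acid enzymes, which are not in the list of 54, gave 6 that fell, 1 that rose and 9 that did not pass out of 16 measured. Those 6 are 37.5% of the 16, beside 9.18% of all genes that fell. Mthfd1, the cytosolic counterpart, fell by 1.73 ± 0.13 SE (limma adjusted p = 0.000167), Gcsh of the glycine cleavage system by 1.42 ± 0.19 SE and the alanine aminotransferase Gpt2 by 0.82 ± 0.17 SE. With the replicate block Oat, ornithine aminotransferase, fell as well (-0.61 ± 0.15 SE, limma adjusted p = 0.0310). Glul, glutamine synthetase, was the 1 that rose (0.91 ± 0.13 SE, limma adjusted p = 0.00221).

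Aldh18a1, which makes the precursor of proline and ornithine from glutamate, had the smallest p of all members. It read 9.32, 9.39 and 9.40 with EGFP and 8.44, 8.32 and 8.25 with EVI1, a 2.05-fold fall (-1.04 ± 0.10 SE, limma adjusted p = 0.000450). The arrays of a group were within 0.20 of each other. Asns, asparagine synthetase, read 11.19, 11.97 and 11.55 against 10.89, 10.96 and 11.02, so the groups were apart although the EGFP arrays spread over 0.79. Its log2 fold change was -0.61 ± 0.19 SE (limma adjusted p = 0.0555). It passed with the replicate block (limma adjusted p = 0.0306), with array weights (0.0301), after a further quantile normalisation (0.0497), with both filters on dim genes (0.0473 and 0.0413) and without EGFP replicate 1 (-0.81, limma adjusted p = 0.0125).

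Got1, the cytosolic aspartate aminotransferase, changed its call with the replicate block. It read 10.62, 11.71 and 11.19 with EGFP and 9.63, 11.08 and 10.49 with EVI1, and EVI1 replicate 2 lay above EGFP replicate 1. Without the block the log2 fold change was -0.77 ± 0.38 SE (limma adjusted p = 0.236). Within replicate numbers the differences were -0.98, -0.63 and -0.70, and with the block the SE was 0.11 (limma adjusted p = 0.00443). With the block all 10 measured synthesis genes fell.

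**Figure D4:**
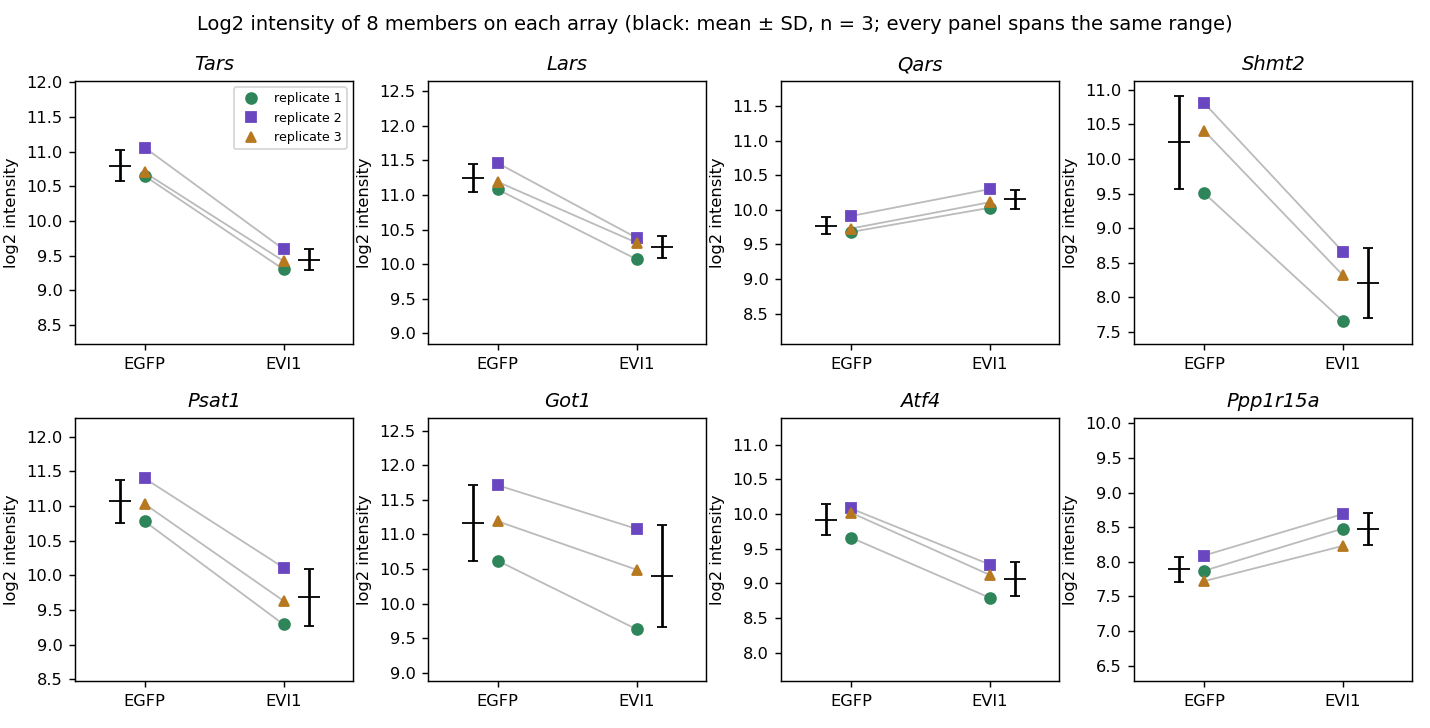
Log2 intensity of 8 members (vertical axis, each panel over the same range) on the EGFP and EVI1 arrays, with same-numbered arrays joined and mean ± SD in black. Tars, Lars, Shmt2, Psat1 and Atf4 are lower on every EVI1 array, Qars and Ppp1r15a are higher, and for Got1 the groups overlap while all 3 joining lines slope down.

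Among the stress factors Atf4 fell, and Trib3 and Ppp1r15a rose. Atf4, the transcription factor of the pathway, read 9.66, 10.08 and 10.02 with EGFP and 8.79, 9.27 and 9.12 with EVI1, a 1.82-fold fall (-0.86 ± 0.16 SE, limma adjusted p = 0.00846) with no overlap. Trib3, a pseudokinase that ATF4 induces and that dampens ATF4 activity, read 7.47, 7.54 and 7.54 against 7.83, 7.93 and 7.92, a 1.30-fold rise (0.38 ± 0.10 SE, limma adjusted p = 0.0284). Ppp1r15a (GADD34), which directs a phosphatase to eIF2 and so reverses its phosphorylation, read 7.87, 8.09 and 7.72 against 8.48, 8.69 and 8.23, a 1.49-fold rise (0.57 ± 0.15 SE, limma adjusted p = 0.0321). All EVI1 arrays were above all EGFP arrays for both.

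The calls of these 2 genes did not hold when arrays were left out. For Trib3, leaving out EGFP replicate 1 or 3 or EVI1 replicate 1, 2 or 3 gave limma adjusted p = 0.0837, 0.0750, 0.0667, 0.0965 and 0.0851. For Ppp1r15a, leaving out EGFP replicate 1 or 3 or EVI1 replicate 1 or 2 gave limma adjusted p = 0.0816, 0.115, 0.0911 and 0.110, and centring the arrays on their medians gave 0.0504. Over all 6 fits with 1 array left out, the log2 fold change of Trib3 was 0.36 to 0.41 and that of Ppp1r15a 0.46 to 0.69.

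The other stress factors did not pass. Ddit3 (CHOP), a pro-apoptotic transcription factor, read 8.66, 8.44 and 8.41 against 8.55, 7.79 and 8.12, with the groups overlapping through EVI1 replicate 1 (-0.35 ± 0.19 SE, limma adjusted p = 0.286). Sesn2, which restrains mTORC1 when leucine is scarce, read 7.63, 8.56 and 8.25 against 8.39, 8.71 and 8.54 (0.40 ± 0.22 SE, limma adjusted p = 0.307). Chac1, which degrades glutathione and is a sensitive ATF4 target, read 8.02, 8.28 and 8.40 against 8.31, 8.49 and 8.39 (95% interval -0.13 to 0.45). The intervals of Chac1 and Sesn2 exclude a fall as large as that of Atf4. Atf5 differed by -0.13 ± 0.10 SE.

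The eIF2 kinases of the list had values near 0. Eif2ak3 (PERK) read 8.64, 8.48 and 8.43 against 8.50, 8.53 and 8.15 (95% interval -0.44 to 0.18). Eif2ak4 (GCN2) read 9.05, 8.67 and 8.86 against 8.92, 8.82 and 8.57 (95% interval -0.41 to 0.23). The groups overlapped in both. Of 10 measured further genes of eIF2 and its exchange factor, 2 fell, Eif2b1 (-0.94 ± 0.19 SE, limma adjusted p = 0.0103) and Eif2b3 (-0.94 ± 0.12 SE, limma adjusted p = 0.00130), which encode subunits of the exchange factor eIF2B, and 8 did not pass. These 2 falls are 20.0% of the 10, near the 16.8% of genes above the median level that fell (9.18% of all genes). With the replicate block 3 fell and 1 rose, since Eif2s3x, a subunit of eIF2, fell (-0.43 ± 0.12 SE, limma adjusted p = 0.0494) and the eIF2 kinase Eif2ak2 (PKR) rose (0.61 ± 0.10 SE, limma adjusted p = 0.00770).

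Other genes linked to ATF4 also went both ways. Of 15 measured, 3 fell (20.0%), 4 rose and 8 did not pass. Over all genes 9.18% fell and 9.06% rose, and 16.8% and 16.3% of those above the median level. The share of this list that fell was thus near that of the brighter genes. With the replicate block Stc2 fell as well (-0.78 ± 0.14 SE, limma adjusted p = 0.0101). The 3 that fell without the block were amino acid transporters: Slc7a5, the light chain of the large neutral amino acid exchanger (-2.40 ± 0.15 SE, limma adjusted p = 6.08e-05), Slc1a5, a glutamine carrier (-1.23 ± 0.16 SE, limma adjusted p = 0.00127), and Slc7a1, a carrier of arginine and lysine (-1.05 ± 0.15 SE, limma adjusted p = 0.00254). The rises were those of the stress gene Nupr1 (0.91 ± 0.15 SE, limma adjusted p = 0.00421), the cystine carrier Slc7a11 (1.20), Atf3 (0.62) and Cebpb (0.35). The calls of Slc7a11 and Atf3 were lost without any 1 array other than EGFP replicate 2, and that of Cebpb without any 1 array, with log2 fold changes of 0.89 to 1.60, 0.41 to 0.75 and 0.32 to 0.40. In the ATF6 and XBP1 arm of the unfolded protein response, 8 of 11 measured genes fell and 1 rose, with Sdf2l1 at -0.98 ± 0.13 SE, Manf at -0.83 ± 0.14 SE and the chaperone Dnajb9 at 0.77 ± 0.17 SE. The Dnajb9 call was lost when any 1 EVI1 array was left out, and its log2 fold change was 0.57 to 0.89 over the 6 such fits. Of the 8 falls, those of Sdf2l1, Manf and Hsp90b1 (-0.52 ± 0.11 SE) held without any 1 array. With the replicate block Herpud1 was no longer among the falls (limma adjusted p = 0.0566) and Pdia4 was (0.0469). Of 3 further synthetases measured, Cars2 (-0.59 ± 0.12 SE) and Tarsl2 (-0.98 ± 0.25 SE) fell, both calls being lost without EVI1 replicate 3 and that of Tarsl2 also without EVI1 replicate 1, with log2 fold changes of -0.67 to -0.51 and -1.17 to -0.71 over such fits.

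Some other lists moved with the members and some did not, and their part in these differences was not tested. Over all genes 9.18% fell and 9.06% rose, and 16.8% and 16.3% of those above the median level. Of 10 DNA replication genes 10 fell, with array means of 10.69 to 10.92 in the EGFP arrays and 9.43 to 9.66 in the EVI1 arrays. Stem and progenitor markers gave 6 falls and 1 rise in 9, and their array means were 9.81 to 9.94 against 9.06 to 9.17, with no marker under the olfactory receptor threshold in both groups. Mast cell and basophil markers gave 7 falls in 8 (10.63 to 11.33 against 9.08 to 9.27), neutrophil markers 6 falls and 1 rise in 11 (10.34 to 10.92 against 8.78 to 9.51), or 8 falls with the replicate block, which adds Ltf and S100a9 (limma adjusted p = 0.0295 and 0.0298), and monocyte and macrophage markers 5 falls and 3 rises in 8 (9.96 to 10.29 against 9.37 to 9.81). Erythroid markers gave 2 rises in 5 measured (7.66 to 7.70 against 8.02 to 8.18) and megakaryocyte markers 1 fall and 2 rises in 5 (9.42 to 9.81 against 9.79 to 9.93). Lymphoid markers gave 2 falls in 7 (6.67 to 6.89 against 6.26 to 6.29), of which 3 genes lay under the olfactory receptor threshold in both groups. In a bulk sample, fewer cells of a type and less RNA per cell cannot be told apart.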

How the data were processed

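The authors deposited log2 intensities, 1 per probe set and array, which the submitters' processing notes credit to RMA, with no version given in the sources used here. RMA gives the arrays similar distributions (medians 7.24 to 7.31), so a change of total RNA per cell would not show. Precision is limited by the number of arrays, 3 per group.

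Of 34760 probe sets, 21640 carried 1 gene symbol, 1321 several and 11799 none here. The brightest per gene was used, which gave 19937 genes. Groups were compared in R 4.3.3 using limma 3.58.1 (moderated linear model, two-sided, Benjamini-Hochberg over all genes, no filter), which was tested on simulated data. Members and lists were chosen with earlier results of these data known. Array values are printed for the up to 5 members of a role with the smallest p and the up to 3 with the largest, and for Shmt2, Psph, Qars and, in part, Farsa after their values were seen; of other lists, examples among the genes that passed are named, chosen after their values were seen, together with genes whose call the block changes. EVI1 and EGFP arrays with the same number in their titles deviated together across genes (r = 0.491, 0.269 and 0.197). Arrays with different numbers gave r = -0.346 to 0.0781. The numbers were therefore taken to pair the arrays, and the blocked fit is given where it changes a call. The labels state no pairing, so it was read from the same data that the blocked fit uses. Alternatives covered the block, scaling, filters, probe sets, estimation, array weights and leaving out arrays.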

Additional observations from a re-analysis of the deposited data

How the results depend on the processing

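Of 23 members that rose or fell, 18 kept direction and call under all alternatives run on them (up to 14 each). The exceptions, Eprs, Nars, Rars2, Trib3 and Ppp1r15a, kept their direction but lost the call when arrays were left out, and Ppp1r15a also when arrays were centred on their medians. The count of members that fell was 25 with the replicate block, 23 with either filter on dim genes and 18 to 22 when 1 array was left out. The count that rose was 3 with the replicate block, 1 with centred arrays, 0 to 3 when 1 array was left out, and 1 without the second replicate of both groups, a setting chosen after seeing the data, in which Nars and Trib3 also lost their calls. Falls among mitochondrial synthetases numbered 1 to 3 when 1 array was left out and 4 without the second replicate of both groups. The median of the mitochondrial synthetases was -0.27 without genes under the median of mean level, where 10 of 14 remained. The stress factor median was -0.12 to 0.01 when 1 array was left out. Mecom differed by -0.87 to -0.30 when 1 array was left out. Values near 0 changed sign: Sars was 0.0046 with array weights and, with 1 array left out, -0.19 to 0.09 (0.09 without EGFP replicate 2). Over the same fits Pars2 was -0.08 to 0.0046 (0.0046 without EVI1 replicate 1), Wars2 -0.13 to 0.10 (0.10 without EVI1 replicate 1) and Eif2ak4 -0.19 to 0.0099 (0.0043 without EGFP replicate 1, 0.0099 without EVI1 replicate 3). The blocked fit changed the calls of Yars2, Phgdh, Asns, Got1 and Qars, given above, and no other member's call. The cause of these changes was not tested. With no detection calls used, signal over background is known only through the olfactory receptor genes.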
